A study of Mus musculus with 18 samples.

Results

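The comparison described here sets the hippocampus of AtrxΔE2 mice given 5-aminolevulinic acid (5-ALA) against that of wild-type mice, to ask which transcripts still differ from wild type, or newly differ from it, after treatment. The 5-ALA-treated group was AtrxΔE2+5-ALA mice 1 to 4, mutant for the X-linked gene Atrx and dosed by mouth with 3 mg/kg 5-ALA once a day over postnatal days 30 to 90. Untreated AtrxΔE2 mice 4 to 7 carried the same mutation without the drug, and wild-type mice 4 to 7 carried neither. 5-ALA-treated wild-type mice were not analysed here. These members were chosen by their labels and by the identifier of the array series that holds every treated sample: 8 of the 18 arrays of the study entered the comparison, 4 from each group, and the 4 untreated AtrxΔE2 arrays of that series were set beside them. Each array was hybridised with RNA from the hippocampus, and the stated numbers of mice equal the numbers of arrays, so each array is taken as 1 mouse. The labels name neither sex nor strain, nor the cells in which the Atrx allele is altered.

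ATRX is a chromatin remodeller that works with the histone chaperone DAXX to place a variant of histone H3 at repetitive and G-rich DNA, and its loss in people causes a syndrome with intellectual disability. In mouse brain, genes of the X-linked Xlr cluster are known to be expressed more when ATRX is lost. 5-ALA is the first committed precursor of haem. Cells convert it to protoporphyrin IX, a porphyrin that can bind G-quadruplex DNA, and then to haem, whose breakdown begins with haem oxygenase. CaM kinase II, of which Camk2a encodes the alpha subunit, is a main signalling protein of the hippocampal synapse.

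Of the 23473 probes, 21639 were bright enough to be tested, and the tested probes with a symbol stood for 15396 genes. Blank spots averaged between 61.9 and 63.2 intensity units on the 5-ALA arrays, against 55.3 to 56.6 units on the wild-type arrays, without overlap. Between 88.6% and 89.8% of probes exceeded the blank spots on 5-ALA arrays, against 90.7% to 92.8% on wild-type arrays. The array identifiers run in sequence by group, so array order and group cannot be told apart. Arrays with consecutive identifiers resembled each other: the SD of the log2 difference over all probes was 0.113 between 5-ALA arrays 1 and 2 and 0.116 between 3 and 4, but between 0.192 and 0.208 across these pairs. In the wild-type arrays it was 0.121 and 0.0968 within consecutive pairs and between 0.112 and 0.140 across them. Nothing in the labels says what the pairs share. When each pair was averaged, leaving 2 against 2, no probe passed (0 at an adjusted p under 0.05, 2497 at an unadjusted p under 0.05, limma), and with the pairs as a random block (correlation 0.312) 293 passed. Every p-value below treats the 4 arrays of a group as independent and is read with that limit.

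With the 8 arrays fitted in limma, 1147 probes differed between 5-ALA-treated AtrxΔE2 and wild type at a Benjamini-Hochberg adjusted p under 0.05. They were 565 higher and 582 lower, or 5.30% of those tested (2.61% higher and 2.69% lower). On this log2 scale the median size of a called difference was 0.26, 536 were under 0.25 and 111 exceeded 0.5. An offset of 50 intensity units was added before the log2 step, which shrinks differences, most of all for dim probes. The 4 arrays of one group lay wholly outside the range of the other for 16.5% of all tested probes. Counted once per gene, 842 genes were called, 5.47% (2.64% higher, 2.83% lower), and the median difference of all genes was 0.00, which is the background for every gene list below. Ranked by wild-type level into 4 bins of equal size, probes of the dimmest bin were called in 0.610% of cases and those of the brightest in 7.99%. The count fell to between 352 and 491 without any 1 of the wild-type arrays or without 5-ALA array 1 or 2, lowest at 352 without wild-type array 7. It was 1601 without 5-ALA array 3 and 1307 without array 4.

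**Figure D1:**
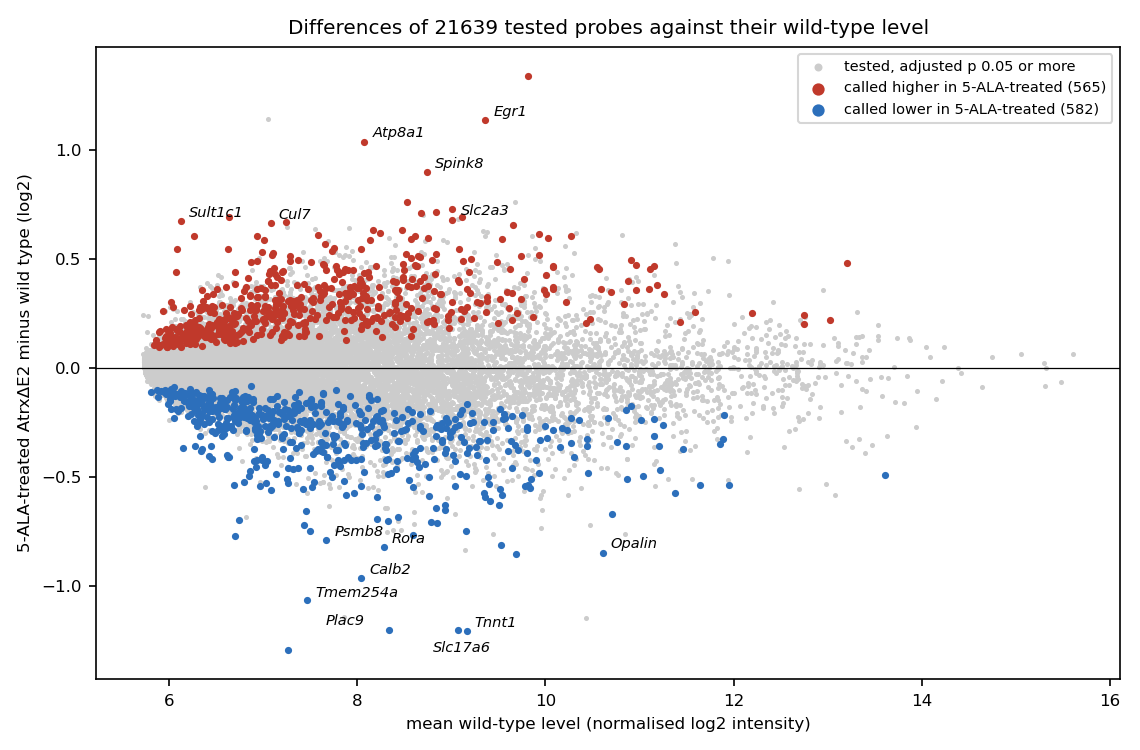
Difference of each tested probe between 5-ALA-treated AtrxΔE2 and wild type (log2, y axis) against its mean wild-type level (normalised log2 intensity, x axis), 4 arrays a group. Red points are the 565 probes called higher and blue points the 582 called lower; few dim probes were called, and Egr1, Atp8a1, Plac9 and Slc17a6 lie more than 1 log2 unit from 0.

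Against the untreated mutants, fitted together with the wild type on the 12 arrays, the called probes fell into classes that share arrays by construction. For 369 probes (166 higher, 203 lower) the treated mice differed from wild type and also, in the same direction, from untreated AtrxΔE2, while untreated AtrxΔE2 was not called against wild type in that direction (2 of the 369 were called in the opposite one): these became different with treatment. For 147 probes (59 higher, 88 lower) both treated and untreated mutants differed from wild type in the same direction and the treated were not called farther from it than the untreated (9 were called nearer): these remained different. Another 6 (4 higher, 2 lower) were called in all 3 comparisons with the treated farthest from wild type, and 625 were called against wild type alone. Over all tested probes, untreated AtrxΔE2 minus wild type called 2.08% (451 probes) and 5-ALA minus untreated AtrxΔE2 called 5.37% (1162). On all 18 arrays, with the array series as covariate, untreated AtrxΔE2 minus wild type called only 20 probes, 17 of them among the 451. The 147 that remained different rest on the 12-array calls and are read with that limit.

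No Xlr gene was called against wild type after treatment. Xlr3b, a gene of the X-linked Xlr cluster, read 6.51, 6.50, 6.37 and 6.30 (normalised log2 intensity) on 5-ALA arrays 1 to 4, 7.67, 7.92, 7.48 and 7.66 on untreated AtrxΔE2 arrays 4 to 7, and 6.32, 6.30, 6.73 and 6.80 on wild-type arrays 4 to 7. The treated values lay within the wild-type range or at its lower edge, and all 4 untreated mutants lay above both groups. Its difference from wild type was −0.12 (SE 0.125, adjusted p = 0.600, 95% interval −0.40 to 0.17) with treatment, against 1.15 (adjusted p = 0.00139) without it, and treated minus untreated was −1.26 (adjusted p = 0.00105). Xlr4b, its neighbour, showed the same order on a smaller scale: 6.15, 6.17, 6.14 and 6.08 on the treated arrays, 6.29, 6.30, 6.31 and 6.38 on the untreated mutant arrays, and 6.11, 6.09, 6.14 and 6.13 on the wild-type arrays. Treated and wild-type values overlapped, with a difference of 0.02 (95% interval −0.04 to 0.08), while the untreated difference was 0.20 (adjusted p = 0.00525). The Xlr5d probe was above the blank spots on 0 of the 4 treated arrays and gives no level there. None of the 5 measured members of the list of Xlr genes and X-linked ATRX targets was called against wild type in the treated mice.

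The promoters of both genes are shown because their transcripts move together on the 12 arrays. Each line gives the RefSeq promoter window (GRCm38.p6, the 250 bases before and 50 bases after the annotated start, plus strand, 5′ to 3′), with CG dinucleotides, the sites of DNA methylation, in capitals.
Xlr3b: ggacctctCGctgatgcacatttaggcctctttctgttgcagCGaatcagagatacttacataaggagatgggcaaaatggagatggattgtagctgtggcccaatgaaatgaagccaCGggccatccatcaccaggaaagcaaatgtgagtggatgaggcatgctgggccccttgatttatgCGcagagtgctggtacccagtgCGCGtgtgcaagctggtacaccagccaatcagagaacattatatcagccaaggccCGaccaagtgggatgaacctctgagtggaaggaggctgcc
Xlr4b: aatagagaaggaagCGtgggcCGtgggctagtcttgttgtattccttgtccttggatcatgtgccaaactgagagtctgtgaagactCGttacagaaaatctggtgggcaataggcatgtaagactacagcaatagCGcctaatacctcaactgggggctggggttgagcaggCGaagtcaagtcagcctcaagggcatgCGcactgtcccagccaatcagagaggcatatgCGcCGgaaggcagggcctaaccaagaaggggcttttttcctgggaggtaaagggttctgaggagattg
The Xlr3b window (chrX:73191929-73192228) holds 7 CG dinucleotides and the Xlr4b window (chrX:73214083-73214382) 8, against a median of 7 over the 32851 promoter windows of the table. Among all windows 52.1% hold at least 7 and 48.6% at least 8. The window of Xlr3b shares an unbroken run of 119 bases with that of Xlr3c and 58 with that of Xlr3a. Transcript and probe sequences were not compared, so whether the array probe reads more than 1 of these genes was not tested.

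The Atrx transcript itself was lower. It read 6.03, 5.99, 6.20 and 6.14 on the treated arrays and 6.03, 6.27 and 6.25 on 3 untreated mutant arrays (the spot on array 7 was unusable and was left out), against 6.54, 6.32, 6.45 and 6.48 on the wild-type arrays. Treated and wild-type values did not overlap, and the treated mice fell by 0.36 relative to wild type (SE 0.0618, adjusted p = 0.0223). In untreated mutants the difference was −0.27 (adjusted p = 0.111), and treated minus untreated was −0.09 (adjusted p = 0.529). The part of the transcript that the probe reads is not stated, so it does not check the deletion. The call was lost without wild-type array 4, 6 or 7 or 5-ALA array 1 or 2, with adjusted p up to 0.0688. Of 29 measured genes for ATRX partners, DNA methylation and heterochromatin, Atrx was the 1 called lower and Ehmt2, the histone H3 lysine methyltransferase G9a, the 1 called higher (0.28, adjusted p = 0.0298, lost without 5 of the 8 arrays in turn, wild-type 5, 6 and 7 and 5-ALA 1 and 2, at up to 0.0814). None of 22 measured G-quadruplex helicases and binding proteins was called, and their largest differences were −0.54 for the splicing factor gene Srsf1 (adjusted p = 0.109) and 0.21 for the helicase gene Dhx36 (adjusted p = 0.0907).

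A small set of transcripts stood farther from wild type in treated than in untreated mutants, and Atp8a1, a phospholipid flippase of neuronal membranes, led it. It read 9.13, 9.12, 9.05 and 9.17 on the treated arrays, 8.84, 8.84, 8.75 and 8.56 on the untreated mutant arrays, and 8.15, 8.03, 8.12 and 8.02 on the wild-type arrays. The 3 groups did not overlap. The treated mice exceeded wild type by 1.04 (SE 0.0397, adjusted p = 0.000124) and untreated mutants by 0.37 (adjusted p = 0.00795), and its call against wild type was kept without each of the 8 arrays, with adjusted p at most 0.00192. Cul7, the cullin scaffold of a ubiquitin ligase, rose by 0.67 against wild type (SE 0.0511, adjusted p = 0.00164) and by 0.20 against untreated mutants (adjusted p = 0.0406), with 7.65 to 7.86 on treated, 7.49 to 7.63 on untreated mutant and 7.04 to 7.11 on wild-type arrays. Sult1c1, a cytosolic sulfotransferase, rose by 0.68 (SE 0.0782, adjusted p = 0.00726), with 6.64, 6.71, 6.97 and 6.91 on treated arrays, 6.38 to 6.52 on untreated mutant arrays and 6.08 to 6.24 on wild-type arrays. In the opposite direction Ccn1, a secreted matrix protein, fell by 0.54 (SE 0.0376, adjusted p = 0.00157), with 6.38 to 6.47 on treated arrays, 6.56 to 6.84 on untreated mutant arrays and 6.91 to 7.06 on wild-type arrays. The other 2 of the 6 were Hdac4, a class IIa histone deacetylase (0.44), and Cxcl10, an interferon-induced chemokine (−0.38); both were chosen after their values were seen.

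**Figure D2:**
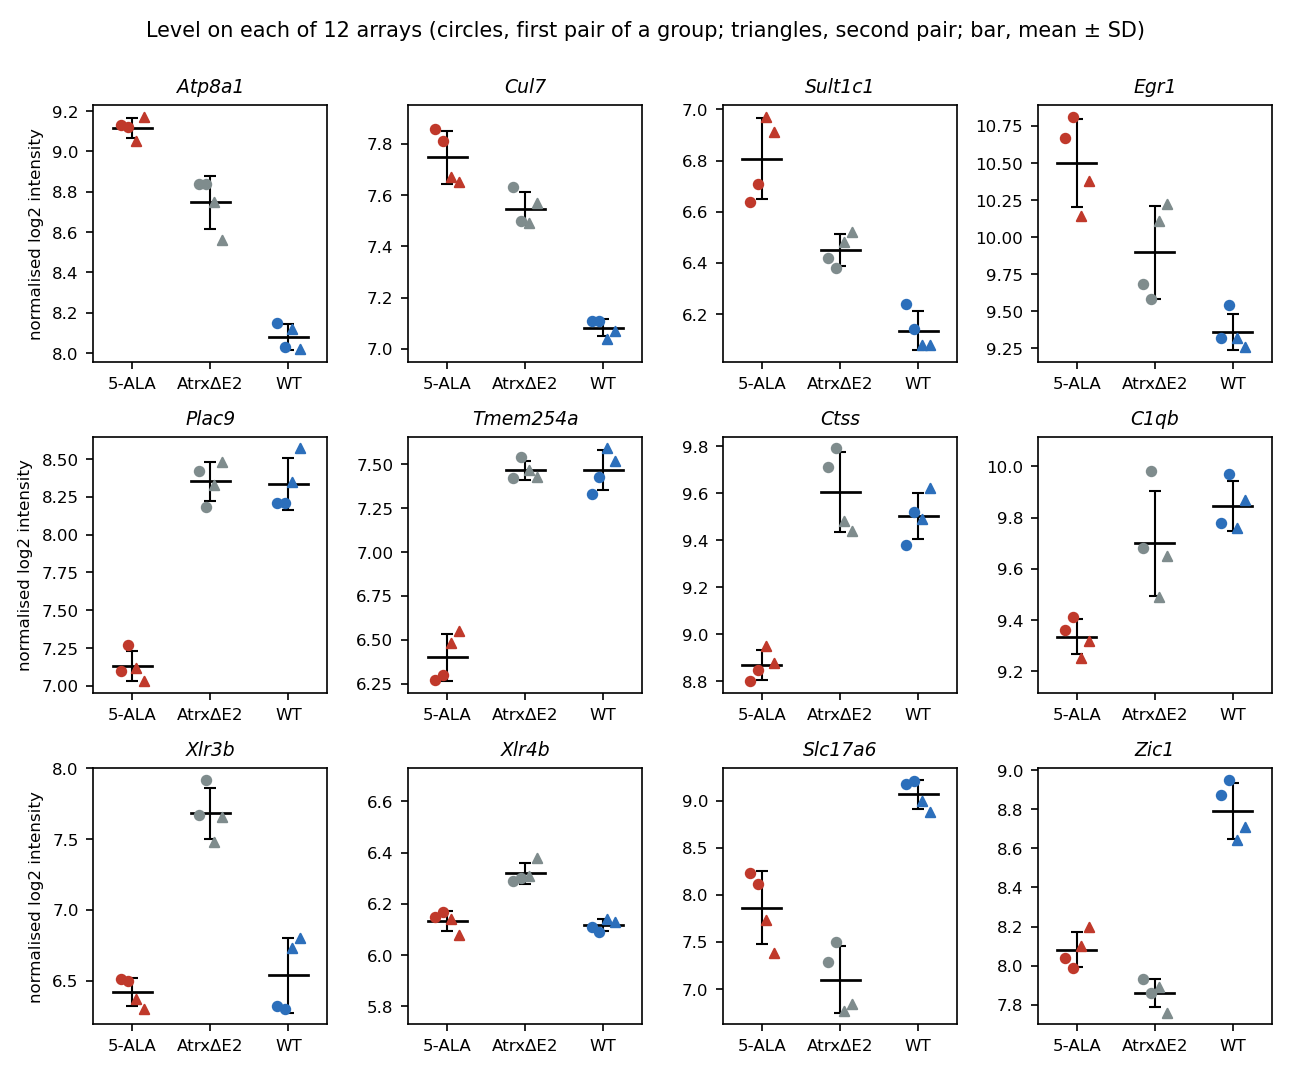
Levels of 12 transcripts (normalised log2 intensity) on 5-ALA-treated AtrxΔE2 arrays 1 to 4 (red), untreated AtrxΔE2 arrays 4 to 7 (grey) and wild-type arrays 4 to 7 (blue); circles are the first pair of consecutive arrays of a group, triangles the second, bars mean ± SD. Atp8a1 and Cul7 are highest in treated, intermediate in untreated AtrxΔE2 and lowest in wild-type mice, Plac9, Tmem254a and Ctss are low in treated mice alone, and Xlr3b and Xlr4b are high in untreated mutants alone.

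Among the named genes that became different with treatment, Plac9 and Tmem254a had the largest falls. Plac9, which encodes a small secreted protein, read 7.10, 7.27, 7.12 and 7.03 on the treated arrays, 8.42, 8.18, 8.33 and 8.48 on the untreated mutant arrays and 8.21, 8.21, 8.35 and 8.57 on the wild-type arrays. Tmem254a, which encodes a small membrane protein, read 6.27, 6.30, 6.48 and 6.55 on the treated arrays, 7.42, 7.54, 7.47 and 7.43 on the untreated mutant arrays and 7.33, 7.43, 7.59 and 7.52 on the wild-type arrays. For both, the treated arrays lay far below the other 8 and the untreated mutants overlapped wild type. Plac9 fell by 1.20 (SE 0.0878, adjusted p = 0.00157) and Tmem254a by 1.07 (SE 0.0779, adjusted p = 0.00157), against 0.02 and −0.00 in the untreated mutants. Both calls were kept without each array in turn. The genes are neighbours on chromosome 14 in the RefSeq assembly, where Plac9 is listed in 3 copies (Plac9a, Gm9780, Plac9b) that alternate with 3 copies of Tmem254 (Tmem254a, Tmem254c, Tmem254b). The probes may read more than 1 copy, so these values are uncertain as to the copy. Their promoter windows (RefSeq, GRCm38.p6, minus strand, 5′ to 3′, CG in capitals) are shown because the neighbours fell together:
Plac9a: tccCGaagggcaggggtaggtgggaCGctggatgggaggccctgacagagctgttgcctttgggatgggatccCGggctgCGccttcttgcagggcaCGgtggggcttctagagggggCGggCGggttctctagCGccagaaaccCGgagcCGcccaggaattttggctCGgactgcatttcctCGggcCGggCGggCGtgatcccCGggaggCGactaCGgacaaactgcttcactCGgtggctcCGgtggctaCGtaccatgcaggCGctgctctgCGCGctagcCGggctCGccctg
Tmem254a: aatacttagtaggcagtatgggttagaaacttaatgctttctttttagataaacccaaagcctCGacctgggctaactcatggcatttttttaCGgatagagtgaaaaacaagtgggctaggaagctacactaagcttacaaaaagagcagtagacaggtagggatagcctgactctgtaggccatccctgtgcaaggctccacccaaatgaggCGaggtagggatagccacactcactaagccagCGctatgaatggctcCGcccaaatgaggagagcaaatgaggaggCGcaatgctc
The Plac9a window (chr14:25902844-25903143) has 26 CG dinucleotides, a number reached by 16.9% of windows, and the Tmem254a window (chr14:25927623-25927922) has 6, reached by 56.4%. The Tmem254a window shares an unbroken run of 300 bases with that of Tmem254c and 284 with that of Tmem254b, and the Plac9a window shares 222 bases with those of Gm9780 and Plac9b. Whether the copy number is the same in every group was not tested. Cuedc1 also became different: it fell by 0.75 (SE 0.0803, adjusted p = 0.00642), with 6.6 to 6.88 on treated arrays, 7.31 to 7.68 on untreated mutant arrays and 7.36 to 7.65 on wild-type arrays.

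Immune genes were called lower in the treated mice. Of 23 measured genes of the interferon response and antigen presentation, 10 fell and 0 rose, with a list median of −0.13. Of 23 measured microglial genes, 8 fell and 0 rose, with a median of −0.19. Leaving out single arrays gave 5 to 10 falls of the first list and 4 to 9 of the second, and with consecutive pairs as a random block 7 and 4 were called lower. The summed intensity of the interferon list was 3710 to 3900 units in treated and 4850 to 5250 units in wild-type arrays, while that of the microglial list overlapped, at 17300 to 21000 treated and 19800 to 20900 wild type. Such linear sums, here and below, weigh bright genes most. The interferon sum leans heavily on B2m (mean log2 level 10.8 treated, 11.4 wild type) and does not speak for the list as a whole. Since these are whole-tissue samples, fewer cells of a type and less RNA per cell cannot be told apart here or for any cell type below.

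Cathepsin S (Ctss), a lysosomal protease of microglia that trims antigens, read 8.80, 8.85, 8.95 and 8.88 on treated arrays, 9.71, 9.79, 9.48 and 9.44 on untreated mutant arrays and 9.38, 9.52, 9.49 and 9.62 on wild-type arrays. It was low in the treated mice alone, falling by 0.63 against wild type (SE 0.0549, adjusted p = 0.00308) and by 0.73 against untreated mutants (adjusted p = 0.00138). The complement genes C1qa and C1qb, made by microglia, fell by 0.55 (adjusted p = 0.0120) and 0.51 (adjusted p = 0.00642). C1qb read 9.25 to 9.41 on treated, 9.49 to 9.98 on untreated mutant and 9.76 to 9.97 on wild-type arrays. The receptor adaptor Fcer1g fell by 0.29 (adjusted p = 0.0140). Cd68 (−0.24) and the lipid receptor Trem2 (−0.28) also fell, but lost their calls without wild-type arrays 4, 5 or 7 or 5-ALA array 1 or 2 (Trem2 also without wild-type 6), at adjusted p up to 0.0827 and 0.0708. Of the markers that define microglia, Cx3cr1 averaged 7.94 ± 0.0774 in treated and 8.10 ± 0.0933 in wild-type arrays (SD, n = 4 each, adjusted p = 0.124) and P2ry12 averaged 7.11 ± 0.418 and 7.64 ± 0.105 (adjusted p = 0.140). Of the 23 measured members 4 had a positive difference, all uncalled: Fcrls (0.24, adjusted p = 0.0726), the growth factor receptor Csf1r (0.10, adjusted p = 0.261), Laptm5 (0.06, adjusted p = 0.757) and Tmem119 (0.04, adjusted p = 0.673). Aif1 (−0.06, adjusted p = 0.767) and the integrin Itgam (−0.02, adjusted p = 0.837), both common microglial markers, were not called.

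In the antigen presentation genes, B2m, the light chain of MHC class I, fell by 0.58 (SE 0.0524, adjusted p = 0.00381), with 10.88, 10.69, 10.76 and 10.90 on treated arrays, 11.15 to 11.41 on untreated mutant arrays and 11.41, 11.31, 11.37 and 11.44 on wild-type arrays. H2-Aa, a class II chain, fell by 0.56 (adjusted p = 0.00651), with 6.45 to 6.59 on treated and 6.94 to 7.23 on wild-type arrays. Cd74, the class II invariant chain, fell by 0.40 (adjusted p = 0.0180, lost without wild-type array 4, 5 or 6 at up to 0.0583). Psmb8, a subunit of the immunoproteasome, fell by 0.79 (adjusted p = 0.0101), and its probe lies in block 1 of the array, where 63 probes were called lower and 6 higher. After smoothing over position Psmb8 was lower by 0.59 (adjusted p = 0.00523). The interferon genes Usp18 and Irf9 fell by 0.27 each (adjusted p = 0.00642 and 0.00923). Untreated mutants differed from wild type by −0.01 for Usp18 (adjusted p = 0.954) and −0.23 for Irf9 (adjusted p = 0.0260). The other 4 called members fell by between 0.15 and 0.54.

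Oligodendrocyte transcripts were also called lower: 6 of 22 measured genes fell and 0 rose, with a median of −0.27 (3 to 9 falls without single arrays). Opalin, a membrane protein of myelinating cells, read 10.06, 9.61, 9.70 and 9.68 on treated arrays, 10.15, 10.19, 10.59 and 10.14 on untreated mutant arrays and 10.58, 10.48, 10.74 and 10.64 on wild-type arrays. It fell by 0.85 (SE 0.102, adjusted p = 0.00804) but lies in block 1, and was lower by 0.63 (adjusted p = 0.0128) after smoothing over position. Aspa, which breaks down N-acetylaspartate for myelin lipid, fell by 0.75 (SE 0.102, adjusted p = 0.0115), with 8.21 to 8.6 on treated, 8.83 to 8.99 on untreated mutant and 9.05 to 9.25 on wild-type arrays. Qdpr (−0.54, adjusted p = 0.0157) and the lineage factor Olig1 (−0.39, adjusted p = 0.0127) fell, as did Fa2h (−0.12), which makes hydroxylated myelin lipids, and Ermn (−0.54). Qdpr lost its call without wild-type array 6 (0.0519), Ermn without wild-type 4, 6 or 7 or 5-ALA 1 or 2 (up to 0.111) and Fa2h without any wild-type array or 5-ALA 1 (up to 0.0773). Olig1 was −0.14 (adjusted p = 0.298) after smoothing over position. Mbp, the main myelin protein gene, averaged 12.5 ± 0.286 in treated and 13.1 ± 0.231 in wild-type arrays (adjusted p = 0.0781).

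Astrocyte and vessel genes showed smaller groups of falls. Of 24 astrocyte genes 2 fell: the water channel Aqp4 by 0.69 (SE 0.0815, adjusted p = 0.00778), with 7.6, 7.63, 7.84 and 7.92 on treated, 7.81 to 8.38 on untreated mutant and 8.35 to 8.55 on wild-type arrays, and the connexin Gjb6 by 0.40 (adjusted p = 0.00751). Gjb6 was as low in untreated mutants (−0.41, adjusted p = 0.0247), and under median scaling its difference was −0.29 (adjusted p = 0.0688). Gfap differed by −0.11 (adjusted p = 0.272). Of 23 genes of endothelium and pericytes 4 fell and 1 rose, with a median of 0.00. Cldn5, a tight junction protein of the blood-brain barrier, fell by 0.54 (SE 0.0476, adjusted p = 0.00313), with 9.17 to 9.36 on treated, 9.53 to 9.69 on untreated mutant and 9.72 to 9.84 on wild-type arrays. The extracellular protein Vtn fell by 0.54 (adjusted p = 0.00651) and the pericyte channel Kcnj8 by 0.28 (adjusted p = 0.0118). Ly6c1 (−0.23) and the smooth muscle actin Acta2 (0.31) were called but lost the call without 6 and 5 of the 8 arrays (both without wild-type 4, 6 or 7 and 5-ALA 1 or 2, Ly6c1 also without wild-type 5), at up to 0.0685 and 0.0872.

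**Figure D3:**
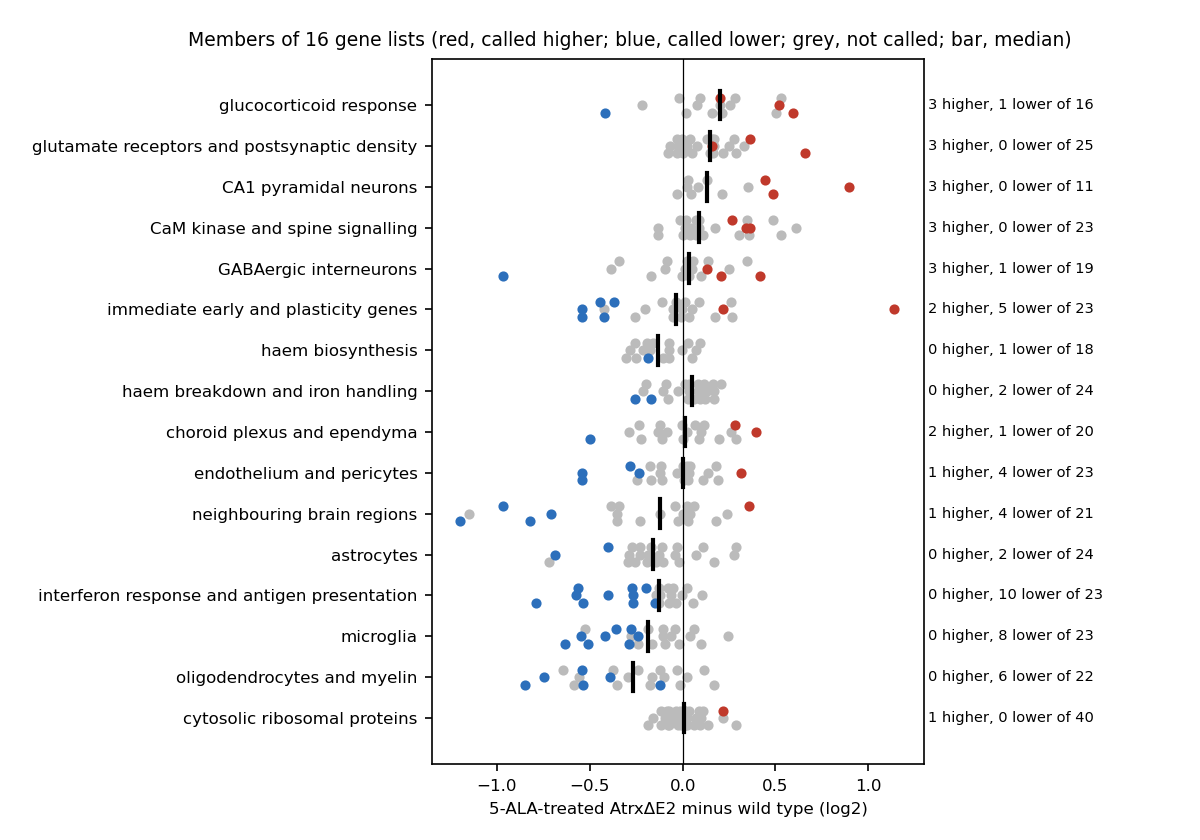
Difference between 5-ALA-treated AtrxΔE2 and wild type (log2, x axis) for the measured members of 16 gene lists, 1 point a gene; red points are called higher, blue points called lower, grey points not called, and the black bar is the list median. In the interferon, microglial and myelin lists 10 of 23, 8 of 23 and 6 of 22 genes are blue and none is red.

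CA1 genes were called higher. Spink8, a protease inhibitor gene of CA1 pyramidal cells, read 9.63, 9.63, 9.57 and 9.71 on the treated arrays, 9.52, 9.50, 9.15 and 9.08 on the untreated mutant arrays and 8.42, 8.47, 9.02 and 9.04 on the wild-type arrays. It rose by 0.90 (SE 0.151, adjusted p = 0.0206), and both the mutant and the wild-type arrays split by consecutive pair. The call was lost without wild-type array 5 or 5-ALA array 1 or 2 (up to 0.0551). With it, Lefty1 (0.49, adjusted p = 0.0159) and Fibcd1 (0.44, adjusted p = 0.00923) made 3 rises and 0 falls among 11 measured CA1 genes, with a list median of 0.13. Of the 10 measured CA3 and CA2 genes 0 were called, and of 15 dentate granule cell genes 1 fell, Stxbp6 (−0.52, adjusted p = 0.0127).

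With all 8 arrays, some postsynaptic genes were called higher and none lower. Of 25 measured glutamate receptor and postsynaptic density genes 3 rose and 0 fell (median 0.15), and of 23 CaM kinase and spine signalling genes 3 rose and 0 fell (median 0.09). Without single arrays the rises numbered 0 to 6 and 1 to 4, and with consecutive pairs as a random block they numbered 0 and 1. Without 5-ALA arrays 1 and 2, when 1.16% of all probes were called higher and 1.55% lower, rises numbered 0 and 2 and falls 1 and 0. Without 5-ALA arrays 3 and 4 (12.9% higher, 12.6% lower) rises numbered 10 in each list and falls 1 and 0. The rises thus rested mostly on 5-ALA arrays 1 and 2. Gria2, an AMPA receptor subunit, read 10.94, 11.06, 11.02 and 10.77 on treated, 10.56 to 10.62 on untreated mutant and 10.69, 10.54, 10.54 and 10.57 on wild-type arrays. It rose by 0.36 (adjusted p = 0.0266) in the treated mice alone, with untreated minus wild type at −0.01. Camk1g, a CaM kinase I, rose by 0.36 (SE 0.0415, adjusted p = 0.00688), and its call was kept without each array. Dlgap1, a postsynaptic scaffold, rose by 0.66 (adjusted p = 0.0347), but a second probe of the gene read −0.06 (adjusted p = 0.502). Camkv (0.34), Git1 (0.26) and the NMDA receptor subunit Grin2a (0.16) were also called higher. Gria2, Dlgap1, Camkv, Git1 and Grin2a lost their calls without wild-type array 5, 6 or 7 or 5-ALA array 1 or 2 (all but Gria2 also without wild-type 4, Camkv and Git1 also without 5-ALA 3), with adjusted p up to 0.0779, 0.0949, 0.0879, 0.113 and 0.0850.

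Camk2a was not called. It read 9.49, 9.57, 8.93 and 8.86 on the treated arrays, 8.88, 8.94, 8.78 and 8.73 on the untreated mutant arrays and 8.91, 8.57, 8.59 and 8.65 on the wild-type arrays. Treated arrays 1 and 2 stood above all others, treated array 4 lay within the wild-type values and array 3 just above them, and the difference was 0.53 (SE 0.177, adjusted p = 0.117). Relative to the wild-type mean, arrays 1 and 2 averaged 0.85 higher and arrays 3 and 4 averaged 0.21 higher.

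Other large rises were spread over several kinds of gene. Slc2a3, the neuronal glucose transporter GLUT3, read 9.84, 9.82, 9.44 and 9.64 on treated, 9.11 to 9.29 on untreated mutant and 8.90 to 9.15 on wild-type arrays, a rise of 0.68 (SE 0.0952, adjusted p = 0.0127). Ptpru, a receptor tyrosine phosphatase, rose by 0.61 (SE 0.0649, adjusted p = 0.00642), with 8.10, 8.33, 8.15 and 8.20 on treated, 7.30 to 7.73 on untreated mutant and 7.47 to 7.71 on wild-type arrays. The lysosomal glucosidase Gaa (0.59, adjusted p = 0.00908), the sorting receptor Sorl1 (0.59, adjusted p = 0.0115) and Thsd4 (0.69, adjusted p = 0.00801) also rose and kept their calls without each array. The matrix metalloproteinase Mmp17 (0.69), the transcriptional corepressor Ski (0.76), Tmem132a (0.73), Sipa1l1 (0.72), the dendritic protein dendrin Ddn (0.62) and the calcium sensor Hpcal4 (0.62) were called higher but lost the call without single arrays. Mmp17 did so without any wild-type array (up to 0.0647), Tmem132a without wild-type 7 (0.0513), and Ski, Sipa1l1, Ddn and Hpcal4 without any wild-type array or 5-ALA 1 or 2 (Hpcal4 also 5-ALA 4), at up to 0.0753, 0.114, 0.0866 and 0.0996.

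GABA-related genes moved in both directions. Of 11 measured GABA receptor genes 1 rose, Gabra5 (0.44, adjusted p = 0.01), a subunit of extrasynaptic receptors of pyramidal cells, and 2 fell: Gabra4 (−0.58, adjusted p = 0.0147) and Gabrd (−0.41, adjusted p = 0.0384), subunits that assemble in dentate and thalamic neurons. Gabrd lost its call without any wild-type array or 5-ALA 1, 3 or 4 (up to 0.0986), and the adjusted p of Gabra4 was 0.0525 with consecutive pairs as a random block and 0.0669 without 5-ALA arrays 1 and 2. Of 19 interneuron genes 3 rose, the vesicular GABA transporter Slc32a1 (0.42, adjusted p = 0.0224, untreated 0.40), Dlx1 (0.21) and Htr3a (0.13), and 1 fell, Calb2 (−0.97, adjusted p = 0.0317). The call of Slc32a1 was lost without wild-type 4, 5 or 7 or 5-ALA 1 or 2 (up to 0.0654), that of Dlx1 without any array but wild-type 7 (up to 0.0982) and that of Htr3a without any wild-type array or 5-ALA 1 or 2 (up to 0.0879). Of 22 presynaptic genes 2 rose, the priming factor Unc13a (0.36) and the active zone scaffold Pclo (0.21), and 1 fell, Slc17a6. Unc13a and Pclo lost their calls without wild-type 5, 6 or 7 or 5-ALA 1 or 2 (Unc13a also wild-type 4), at up to 0.1 and 0.0689. Among 29 potassium channel genes Kcnq5 (0.33, SE 0.0211, adjusted p = 0.00157) and Kcnn2 (0.38, adjusted p = 0.0124) rose, with Kcnq5 at 7.25 to 7.29 on treated, 7.08 to 7.30 on untreated mutant and 6.93 to 6.97 on wild-type arrays. Kcnk1 fell by 0.27, a call lost without wild-type 4, 6 or 7 or 5-ALA 2, 3 or 4 (up to 0.0854).

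Immediate early genes, which neurons switch on within minutes of activity, were split. Egr1 read 10.67, 10.81, 10.14 and 10.38 on the treated arrays, 9.68, 9.58, 10.11 and 10.22 on the untreated mutant arrays and 9.32, 9.54, 9.32 and 9.26 on the wild-type arrays. It was higher in every treated array than in any wild-type array, by 1.14 (SE 0.143, adjusted p = 0.00922), and the untreated mutants lay between (0.54, adjusted p = 0.140; treated minus untreated 0.60, adjusted p = 0.0637). Fos, in contrast, fell by 0.54 (SE 0.0761, adjusted p = 0.0127), with 7.40, 7.42, 7.74 and 7.43 on treated, 7.34 to 7.95 on untreated mutant and 7.98 to 8.09 on wild-type arrays. Ier2 fell by 0.45 (adjusted p = 0.00642), Btg2 by 0.42 (adjusted p = 0.0195) and Dusp1, named after its value was seen, by 0.37, while the nuclear receptor Nr4a1 rose by 0.22 (adjusted p = 0.0124, 0.480 on all 18 arrays and 0.114 in the authors' deposited table). In all 2 of 23 rose and 5 fell, with a list median of −0.04 that turned positive under some of the alternatives in processing. Btg2 lost its call without wild-type array 5, 6 or 7 (up to 0.0616). Of 16 glucocorticoid-responsive genes 3 rose, Sgk1 (0.59), Per1 (0.52) and the metallothionein Mt1 (0.20, adjusted p = 0.0127), and 1 fell, Hsd11b1 (−0.42), which regenerates active glucocorticoid. The list median was 0.20. The adjusted p of Mt1 was 0.0991 after smoothing over position, 0.0508 without 5-ALA arrays 1 and 2, 0.535 on all 18 arrays and 0.364 in the authors' deposited table. Sgk1 lost its call without any of the 8 arrays (up to 0.103), Per1 without any wild-type array or 5-ALA 1 or 2 (up to 0.0882) and Hsd11b1 without wild-type 4, 6 or 7 or 5-ALA 1, 3 or 4 (up to 0.0872).

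In haem metabolism, into which 5-ALA feeds, 5.56% of biosynthesis genes and 8.33% of breakdown and iron genes were called, against 5.47% of all genes. Alas1, the housekeeping 5-ALA synthase that haem normally represses, read 9.30, 9.32, 9.31 and 9.32 on treated arrays, 9.17 to 9.33 on untreated mutant arrays and 9.32, 9.16, 9.16 and 9.31 on wild-type arrays, a difference of 0.07 (95% interval −0.03 to 0.17, adjusted p = 0.342). Of 18 measured haem biosynthesis genes 0 rose and 1 fell, the erythroid synthase Alas2 (−0.19, adjusted p = 0.0383), and 4 of the 18 differences were positive (median −0.13). Hmox1, the inducible haem oxygenase, fell by 0.26 (SE 0.0440, adjusted p = 0.0219) against wild type and by 0.26 against untreated mutants (adjusted p = 0.00656). It read 6.80, 6.88, 6.95 and 6.97 on the treated arrays, 7.11 to 7.19 on the untreated mutant arrays and 7.08 to 7.20 on the wild-type arrays, so the treated arrays lay below the other 8. The iron exporter Slc40a1 was the second of 2 falls among 24 haem breakdown and iron genes (−0.17, adjusted p = 0.0353), with its probe in block 1 and an adjusted p of 0.0608 after smoothing over position. Single-array omissions ended the calls of Hmox1 (wild-type 4, 6 or 7 or 5-ALA 2, up to 0.0663), Alas2 (any wild-type array or 5-ALA 1, 2 or 4, up to 0.102) and Slc40a1 (the same 7 arrays, up to 0.0962). None of 24 NRF2 target and glutathione genes was called, the largest differences being 0.26 for Gclc (adjusted p = 0.200) and −0.23 for Gss (adjusted p = 0.203).

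Transcripts that remained different from wild type after treatment included a set of 5 expressed in thalamus, though other markers of neighbouring brain regions were not called. Slc17a6, the vesicular glutamate transporter VGLUT2, read 8.23, 8.12, 7.73 and 7.38 on treated arrays, 7.29, 7.50, 6.77 and 6.84 on untreated mutant arrays and 9.18, 9.21, 9 and 8.88 on wild-type arrays. It was lowest in untreated mutants and, in treated mice, 1.20 below wild type (SE 0.184, adjusted p = 0.0155, 0.0501 without wild-type array 5). Calb2, the calcium binder calretinin, fell by 0.97 (adjusted p = 0.0317), Rora, a nuclear receptor, by 0.82 (adjusted p = 0.0145), Shox2 by 0.72 (adjusted p = 0.00164) and Zic1 by 0.71 (adjusted p = 0.00642), the last pair being homeobox and zinc finger transcription factors of the diencephalon. In untreated mutants these 5 were −1.97, −1.42, −0.78, −1.12 and −0.93. On all arrays of the study, with the array series as covariate, only Rora of these 5 kept its treated call (−0.65, adjusted p = 0.0419). There Slc17a6 was −0.82 (adjusted p = 0.178), Calb2 −0.69 (adjusted p = 0.476), Shox2 −0.51 (adjusted p = 0.235) and Zic1 −0.53 (adjusted p = 0.0718). The set as a whole is therefore read with that limit. Zic1 read 8.04, 7.99, 8.10 and 8.20 on treated, 7.76 to 7.93 on untreated mutant and 8.64 to 8.95 on wild-type arrays, without overlap between treated and wild type. Calb2 lost its call without wild-type 5, 6 or 7 or 5-ALA 1 or 2 (up to 0.0840). Prkcd, a kinase abundant in thalamus, averaged 9.28 ± 0.695 in treated, 8.54 in untreated mutant and 10.4 ± 0.294 in wild-type arrays (SD, n = 4, adjusted p = 0.0853). In all, 4 of the 21 measured markers of neighbouring brain regions fell and 1, the channel Trpc4 (0.36, adjusted p = 0.0153, 0.0504 without wild-type array 6), rose. Shox2 is not on that list, and Slc17a6 and Calb2 are also counted above among presynaptic and interneuron genes. Of its other markers, Plekhg1 (−0.04), Rorb (−0.12), Zic4 (0.03) and Lhx2 (0.18) were not called. The summed intensity of the list was 10400 to 10600 units treated and 11900 to 13900 wild type. How much neighbouring tissue each dissection held was not tested. Outside the class that remained different, Tnnt1, a troponin of slow muscle fibres, had the lowest difference of all named genes (−1.21, adjusted p = 0.0149). It was called against wild type in treated but not in untreated mutants. Tnnt1 read 8.36, 7.78, 7.79 and 7.90 on treated, 8.65, 8.69, 6.81 and 6.80 on untreated mutant and 8.82 to 9.53 on wild-type arrays. The untreated arrays, split by consecutive pair, thus also lay below the wild-type range, those at 6.81 and 6.80 below every treated array. A low level was therefore not particular to treated mice. The Tnnt1 probe lies in block 1, and its difference was −0.92 (adjusted p = 0.0138) after smoothing.

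Other transcripts that remained different were not of that set. Mpp3, a membrane-associated guanylate kinase, rose by 0.63 (SE 0.0921, adjusted p = 0.0140; untreated 0.55), with 8.62 to 9.02 on treated, 8.65 to 8.85 on untreated mutant and 8.11 to 8.24 on wild-type arrays. Aldh1a1, a retinaldehyde dehydrogenase, fell by 0.63 (adjusted p = 0.00804; untreated −0.58), Lhfpl3, a transcript of oligodendrocyte precursors, by 0.45 (adjusted p = 0.0121; untreated −0.57) and Atf4, the transcription factor of the integrated stress response, by 0.36 (adjusted p = 0.00923; untreated −0.53). Atf4 and the folding enzyme gene Pdia3 (−0.28, adjusted p = 0.0393) were the 2 of 26 unfolded protein and heat shock genes called. Pdia3 lost its call without any wild-type array or 5-ALA 1 or 4 (up to 0.104). The treated arrays of Atf4 read 10.01 to 10.18, below the wild-type range of 10.39 to 10.52, and its adjusted p was 0.0861 under median scaling.

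Transcripts called for genotype on all 18 arrays, 20 probes in all, differed in how they stood after treatment. Plin3, a lipid droplet protein, was higher (0.36, SE 0.0525, adjusted p = 0.0145), with 8.86, 8.88, 8.76 and 8.68 on treated, 8.92, 9.03, 8.86 and 9.08 on untreated mutant and 8.48, 8.37, 8.38 and 8.51 on wild-type arrays. Atp7a, the copper transporter on the X chromosome, was lower (−0.19, adjusted p = 0.0134; untreated −0.27), with 7.06 to 7.09 on treated and 7.23 to 7.33 on wild-type arrays, but its adjusted p was 0.105 under median scaling. Akr1c14, a steroid reductase, was higher (0.28, adjusted p = 0.0110) and Rit2, a neuronal small GTPase, lower (−0.55, adjusted p = 0.0168). The adjusted p of Rit2 was 0.0639 with consecutive pairs as a random block and 0.0782 without 5-ALA arrays 1 and 2. Tnfrsf17 fell by 0.11 (adjusted p = 0.0306), lost without any wild-type array or 5-ALA 1 or 2 (up to 0.0862). Not called against wild type after treatment were S100a4 (0.06, adjusted p = 0.458; untreated 0.34), the phosphatidylserine decarboxylase gene Pisd (0.11, adjusted p = 0.285; untreated 0.35) and Etnppl, an astrocytic phospho-lyase (−0.23, adjusted p = 0.171; untreated −0.66). For these 3, treated minus untreated was −0.28, −0.24 and 0.43 (adjusted p = 0.0230, 0.0436 and 0.0241). Prdm16 (0.21, adjusted p = 0.0547), Cmtm8 (0.09, adjusted p = 0.0769) and Slc22a4 (−0.08, adjusted p = 0.134) were likewise not called.

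Of 20 measured choroid plexus genes 2 rose and 1 fell in treated mice against wild type (median 0.01), and 10 were called in untreated mutants against wild type (median 0.29); the difference between these counts was not tested. Kl, the co-receptor klotho, was 0.40 in treated and 0.56 in untreated mutants against wild type, Clic6 was 0.28 and 0.42, and the folate receptor Folr1 was −0.50 (adjusted p = 0.0140) and −0.00. Kl and Clic6 lost their treated calls without any wild-type array or 5-ALA 1 or 2 (up to 0.119 and 0.112). Sostdc1, a secreted inhibitor of BMP and Wnt signals, was −0.29 (adjusted p = 0.0733) treated and 0.35 (adjusted p = 0.0336) untreated, and treated minus untreated was −0.64 (adjusted p = 0.00156).

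The lists of this paragraph, housekeeping genes first, had called shares from 0% to 6.9%, against 5.47% of all genes. Their counts are given as a description only. Of 52 respiratory chain genes 0 were called (median −0.06; Ndufs7 −0.32 and Uqcrfs1 −0.32, adjusted p = 0.105 and 0.122), and of 40 cytosolic ribosomal protein genes 1 rose (Rps14, 0.22, adjusted p = 0.00898) and 0 fell. The adjusted p of Rps14 was 0.0962 after smoothing over position, 0.247 on all 18 arrays and 0.307 in the authors' deposited table. The proteasome list had 1 rise, Psmd2 (0.32), and 1 fall, Psmc6 (−0.23), among 29 genes. Psmd2 lost its call without wild-type 6 or 7 (up to 0.0570) and Psmc6 without any array but wild-type 7 (up to 0.120). Of 17 cholesterol synthesis genes Insig1, a brake on sterol synthesis, fell (−0.46, adjusted p = 0.0180, lost without wild-type 5, 6 or 7 at up to 0.0584). Among 24 imprinted genes Sgce fell (−0.28, lost without wild-type 4, 6 or 7 or 5-ALA 1 at up to 0.0763) and the growth factor Igf2 was −0.33 (adjusted p = 0.0598). None of 15 protocadherin genes (Pcdh20 0.57, Pcdh10 0.23, adjusted p = 0.107 and 0.163) and none of 17 meningeal and fibroblast genes (Mgp −0.27, adjusted p = 0.184) was called.

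The 5-ALA arrays differed among themselves by pair. The mean of arrays 1 and 2 lay more than 0.5 above wild type for 430 probes and more than 0.5 below it for 443, against 39 and 86 for the mean of arrays 3 and 4. Among called probes arrays 1 and 2 were the farther from wild type in 71.9%, against 64.1% over all tested probes. Without arrays 3 and 4 the count of calls was 5519, and without arrays 1 and 2 it was 586. Without arrays 3 and 4, when 12.9% of all probes were called higher and 12.6% lower, interferon, microglial and myelin genes called lower numbered 11 each and those called higher 0, 1 and 3. Without arrays 1 and 2, when 1.16% of all probes were called higher and 1.55% lower, the lower calls numbered 6, 4 and 6 and the higher calls 0, 1 and 0.

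Position on the array also moved with the calls. Block 1 of the 24 printed blocks held 6 probes called higher and 63 called lower among 933, and blocks 21 to 24 held 101 higher and 25 lower among 3638, while blocks other than 1, 3 and 21 to 24 held 448 higher and 444 lower. The named falls in block 1 were Tnnt1, Gng11, Opalin, Psmb8, Nxt2, Ppp2r2a and Slc40a1. Among them, Gng11, a G protein gamma subunit, read −0.86 as normalised and −0.58 (adjusted p = 0.0519) after each array's deviations were smoothed over position; Nxt2 read −0.71 and −0.57 (adjusted p = 0.0113) and the phosphatase subunit Ppp2r2a −0.57 and −0.38 (adjusted p = 0.0413). Without single arrays Gng11 lost its call in 7 of 8 fits (all but 5-ALA 1, up to 0.0989) and Nxt2 without any wild-type array (up to 0.0699). Smoothing left 1476 calls, 928 of them among the 1147, with 30 higher and 54 lower in block 1.

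**Figure D4:**
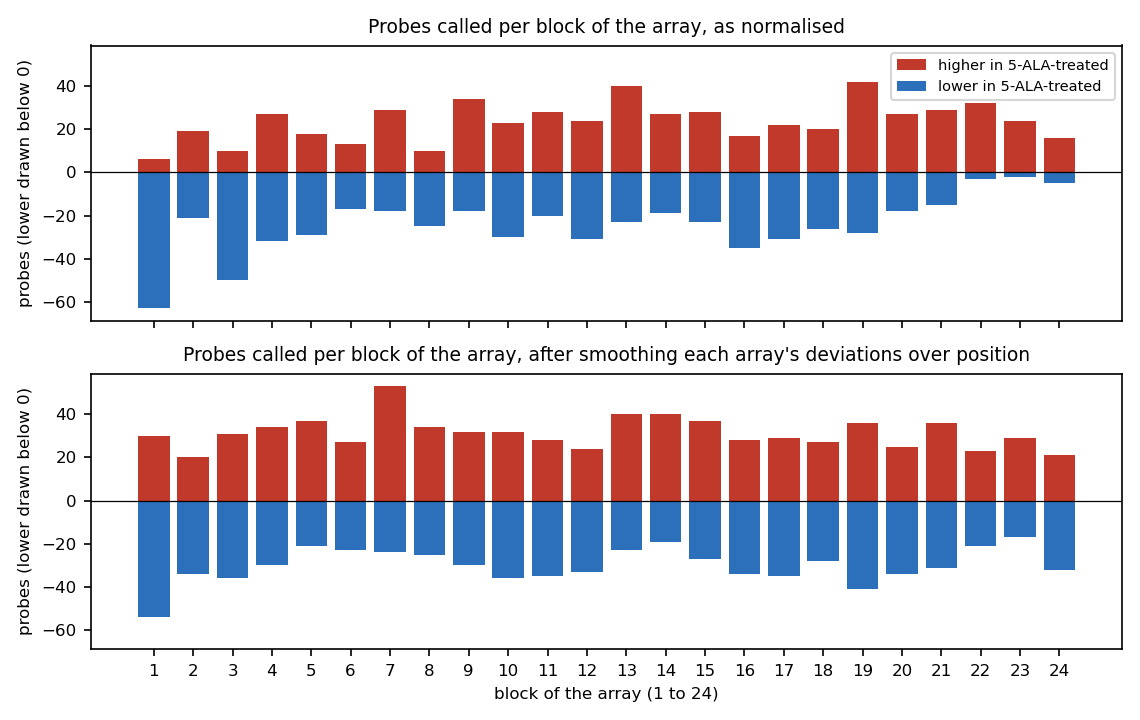
Number of probes called higher (red, above 0) and lower (blue, below 0) in 5-ALA-treated AtrxΔE2 against wild type in each of the 24 blocks of the array, as normalised (top) and after smoothing each array's deviations over position (bottom). In block 1, 63 probes are called lower and 6 higher at the top, against 54 and 30 at the bottom.

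Some calls were kept under 15 of the alternatives: each of 8 arrays left out, 5-ALA arrays 1 and 2 or 3 and 4 left out, the pairs as a random block, smoothing over position, the authors' deposited table, median scaling and cyclic loess. It held 170 probes (70 higher, 100 lower), 92 of which became different with treatment and 32 of which remained different. Atp8a1, Cul7, Sult1c1, Egr1, Slc2a3, Kcnq5 and Plin3 were among the higher, and Plac9, Tmem254a, Cuedc1, Ctss, C1qa, C1qb, B2m, H2-Aa, Aspa, Aqp4, Cldn5, Ccn1, Shox2 and Zic1 among the lower. Of the 170, 139 were also called on all 18 arrays (there H2-Aa, Aqp4, Zic1 and Shox2 had an adjusted p of 0.0616, 0.0576, 0.0718 and 0.235), 48 without wild-type arrays 4 and 5, 35 without 6 and 7, 1 with blank-spot intensity added to the fit and 0 with consecutive pairs averaged. Among the named genes, 57 calls were kept without each single array, and 18 of those were lost on all 18 arrays, Fos (0.251), Tnnt1 (0.209), Irf9 (0.111) and Opalin (0.103) among them. Second probes rarely repeated a call. There were 208 genes with more than 1 tested probe, and 24 were called on the probe of lowest p. The second probe had the same sign in 11 of the 24, a smaller share than the 114 of all 208 genes. It was called in the same direction in 2, Gbp4, an interferon-induced GTPase, and Ntng1, a thalamic axon guidance protein. Calls were spread over the chromosomes, between 3.76% of probes on chromosome 7 and 7.24% on chromosome 14, with 4.78% (6 higher, 19 lower) on the X chromosome.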

How the data were processed

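Hippocampal RNA was amplified to amino allyl aRNA, labelled with Cy5 and hybridised to Toray single-colour arrays, per the labels' protocols. The deposited scanner files hold spot median intensities at 635 nm joined from 3 scanner gains by a least-squares line, with the background in its own column, per the file headers. The authors' deposited table holds linear intensities with a median of 25 on every array; how it was normalised is not given in the sources used here, and it served as an alternative.

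Intensities were background-corrected with normexp (offset 50), spots of a probe averaged, log2 transformed and quantile normalised over the 12 arrays of the series that holds all treated samples. Probes that exceeded 95% of an array's blank spots on 4 or more of the 12 arrays were tested with limma 3.58.1 in R 4.3.3 (moderated two-sided test, Benjamini-Hochberg adjusted p under 0.05 over 21639 probes, SE and 95% intervals from the fit). The comparison with wild type used 8 arrays, and the comparisons with untreated AtrxΔE2 used 12. At most 11 spots an array were unusable and were left out. Of 23473 probes, 16631 had 1 gene symbol, 0 had several and 6842 were unnamed here; 12622 symbols were current and 3947 were updated. The number of arrays limits the precision.

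Genes were named by rule: Atrx, the Xlr genes, Camk2a, Alas1 and Hmox1; the 15 largest called rises and 15 falls whose groups did not overlap; up to 6 called members of each gene list, or the 2 largest differences where none was called; the genotype calls of all 18 arrays; and the 10 largest in each class. In the gene lists and the count per gene, a gene with several probes was represented by its probe of highest mean level. Only the check of second probes ranked a gene's probes by p. The members, lists and rule were chosen with earlier results of these data known. Nothing states that the samples of a group were processed separately, so p-values measure the spread between these arrays. Alternatives covered background, scaling, filter, prior, array weights, omitted arrays and pairs, covariates and position; the last was added after the data were seen. The script was tested on simulated data.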

Additional observations from a re-analysis of the deposited data

Results flagged for a closer look

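The 130 named genes in 3 groups of 4 arrays made 390 groups. Those without a missing value were checked for 1 array far from the other 3 by Dixon's ratio of the gap to the range. The ratio exceeded its 95% critical value in 15 groups. Chance alone gives 1 in 20 for genes not chosen by their values, but many of these were chosen so. The groups below are therefore listed as a description only. On 5-ALA arrays, Fos stood at 7.74 on array 3 against 7.40 to 7.43 on the others (ratio 0.889), the nearest of the 4 to the wild-type level. Array 3 was also high for the dentate gene Stxbp6 (0.864) and the transporter Slc22a4 (0.866), and array 4 was high for the serotonin receptor Htr3a (0.875).

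On untreated AtrxΔE2 arrays, array 6 was high for Pcdh10 (0.916) and Opalin (0.887) and low for the red cell enzyme Bpgm (0.919). Array 4 was low for Insig1 (0.951) and Dhx36 (0.836). On wild-type arrays, array 5 was low for Stxbp6 (0.970) and high for Ly6c1 (0.856), array 7 was low for Hpcal4 (0.943) and Dlx1 (0.881), array 6 was high for Ddn (0.969) and array 4 was low for Btg2 (0.880).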

How the results depend on the processing

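The 1147 probes called between 5-ALA-treated AtrxΔE2 and wild type became 132 at an adjusted p under 0.01 and 2599 under 0.1, 724 with median scaling (482 higher, 242 lower), 1651 in the authors' deposited table (206 higher, 1445 lower, where the median of all probes was −0.11), 1787 on 12 arrays and 1722 on 18. Leaving out 1 array gave 352 to 1601. Without the 5-ALA pair 1 and 2 there were 586, without 3 and 4 there were 5519, without the wild-type pair 4 and 5 there were 85 and without 6 and 7 there were 48. With consecutive pairs as a random block 293 were called, and with pairs averaged 0, also after smoothing over position (2497 and 2550 at an unadjusted p under 0.05, limma). With blank-spot intensity added to the fit, which runs with the groups, 2 were called, and 12 named genes changed sign: Spink8 (−0.73), Sgk1 (−0.0485), Fibcd1 (−0.13), Htr3a (−0.0324), Atp7a (0.0401), Psmc6 (0.18), Cd74 (0.35), Gabrd (0.56), H2-Aa (0.29), Gng11 (0.16), Slc17a6 (1.21) and Tnnt1 (0.85). The causes were not tested. Untreated AtrxΔE2 minus wild type (451) gave 1717 with median scaling, 20 on 18 arrays, 0 with pairs averaged (1884 at an unadjusted p under 0.05, limma) and 214 to 479 without single arrays. 5-ALA minus untreated AtrxΔE2 (1162) gave 616 in the authors' deposited table, 0 with pairs averaged (2438 at an unadjusted p under 0.05, limma) and 533 to 1703 without single arrays. Treated and wild-type mice share only the number 4, so no replicate block could be fitted between them. For untreated AtrxΔE2 and wild type a replicate block gave 66 calls, against 540 without it on the same 8 arrays. The deviations of same-numbered arrays from their group means correlated at −0.139 to 0.0331. These values cannot show whether same-numbered mice were paired, which the labels do not state. Of 106 named genes that were called, 57 kept the call without each of the 8 arrays; 28 lost it under median scaling, 43 with pairs as a random block, 17 in the authors' deposited table and 6 after smoothing over position.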
